A study of Sus scrofa with 48 samples.

Results

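The blood transcriptome of pigs from 2 lines selected for residual feed intake (RFI) was compared within a single diet. The comparison set 12 low RFI pigs against 12 high RFI pigs, all fed the LF diet, which is low in fat and fiber, so that 24 of the 48 pigs of the experiment entered it and no pig fed the HF diet, high in fat and fiber, did. The pigs were chosen by their labels for line and feed, not by any measured value. All of them were French Large White castrated males from the lines divergently selected for low or high RFI, had free access to feed, and gave whole blood at slaughter at 132 days of age. Each pig gave 1 RNA sample and 1 single-colour array. The lines descend from different selected parents, so that a difference between them cannot be told apart from drift between the lines.

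Residual feed intake is the part of an animal's feed intake that its growth and maintenance do not account for, and a low value marks an efficient animal. Whole blood RNA comes from reticulocytes, platelets and leukocytes, and leukocytes carry the genes of innate and adaptive immunity. A level in such a mixture depends both on how many cells of a type are present and on how much of a transcript each holds, and these cannot be told apart here.

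Levels are log2 spot intensities with the median of the array at 0, and each gene was summarised in a pig as the mean over all its probes. On the 24 arrays, the median intensity was 5.91 to 15.8 times the local background, and 40771 to 46727 spots were well above background, with a median of 43118.5 in low RFI and 44221 in high RFI pigs. The arrays stood on 6 slides scanned on 3 days, and each slide held 2 pigs of either line on the LF diet. The arrays of high RFI replicates 9 and 11 had the lowest mean correlation with the other LF arrays, at 0.971 and 0.968. They were also the 2 lowest arrays for markers of red cells. Values without them are given for the called genes that lost their call and for some genes that gained one. They are also given for the lists that moved by over 1.5 times or turned in sign.

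Expression differed between the lines for a small share of the genes tested. By limma's moderated test with Benjamini-Hochberg (BH) correction, 30 of 10033 genes were DE at an adjusted P-value under 0.05, which is 0.299% of the genes. Of these, 12 genes (0.12%) were overexpressed and 18 genes (0.179%) were underexpressed in low RFI pigs. On single probes the same test called 146 of 37113 (0.393%), of which 48 were higher and 98 lower in low RFI pigs. Without the 2 arrays named above, 135 probes were called, and the split became 70 higher and 65 lower. On genes, 33 were then called, 22 of them among the 30. Of the 33, 57.6% were higher in low RFI pigs, against 40% of the 30. At the criterion of the study's methods, an unadjusted P-value under 0.01 with a fold change (FC) above 1.1, 963 probes (2.59%) and 270 genes (2.69%) passed. Of the probes, 1.04% passed as higher and 1.55% as lower in low RFI pigs, and of the genes 1.22% and 1.48%. The median difference over all genes was 0.02 on the log2 scale, and 58.7% of all genes had a higher mean in low RFI pigs. FC is given as low RFI over high RFI, and as the negative of the inverse where the low RFI pigs were lower.

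Among the genes, 3 of 10033 (0.0299%) had values that did not overlap between the 2 lines, and these were EIF1B, PARVG and LOC100620521. EIF1B, which codes for a close relative of the start-codon selection factor EIF1, showed the largest rise among the called genes. Its level was 3.51 in the lowest, 4.19 in the median and 4.81 in the highest low RFI pig, against 2.36, 2.5 and 3.32 in high RFI pigs. Every low RFI pig was thus above every high RFI pig. The difference was 1.54 on the log2 scale (SE 0.15, FC 2.9), with an adjusted P-value of 1.85e-06 by limma with BH correction. It ran from 0.89 to 1.99 over the 6 slides. EIF1B was read by 8 probes, all of which were called, with differences of 1.47 to 1.65. At least 5 of the 8 overlap in a shared stretch, so that the 8 probes are not 8 independent readings. The stretch of 23 bases held by 5 of the 8 probes is printed to show what the shared reading rests on.
EIF1B, shared by 5 probes: gtaggctagtaacacataagaaa

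PARVG codes for gamma-parvin, an actin-binding adhesion protein of blood-forming cells. Its level was 0.02, 0.17 and 0.37 in the lowest, median and highest low RFI pig and 0.60, 1.13 and 1.57 in the corresponding high RFI pigs. The low RFI pigs lay close together, with an SD of 0.10 against 0.34 in high RFI pigs, and the groups were separate. PARVG was underexpressed in low RFI pigs by an FC of -1.96 (log2 difference -0.97, SE 0.10, adjusted P-value 2.22e-06, limma with BH correction). The gene was read by 1 probe, whose sequence is given because the separation of the lines rests on it alone.
PARVG, probe O12841: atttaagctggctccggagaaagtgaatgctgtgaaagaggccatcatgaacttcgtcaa

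LOC100620521, a predicted gene without an assigned symbol, was read by 2 probes, and both were called. Levels were 0.21, 0.51 and 0.81 in the lowest, median and highest low RFI pig, and 0.81, 1.13 and 1.33 in high RFI pigs. The highest low RFI pig and the lowest high RFI pig were nearly equal, so that the separation was narrow. The FC was -1.49 (log2 difference -0.58, SE 0.08, adjusted P-value 0.000371, limma with BH correction).

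**Figure D1:**
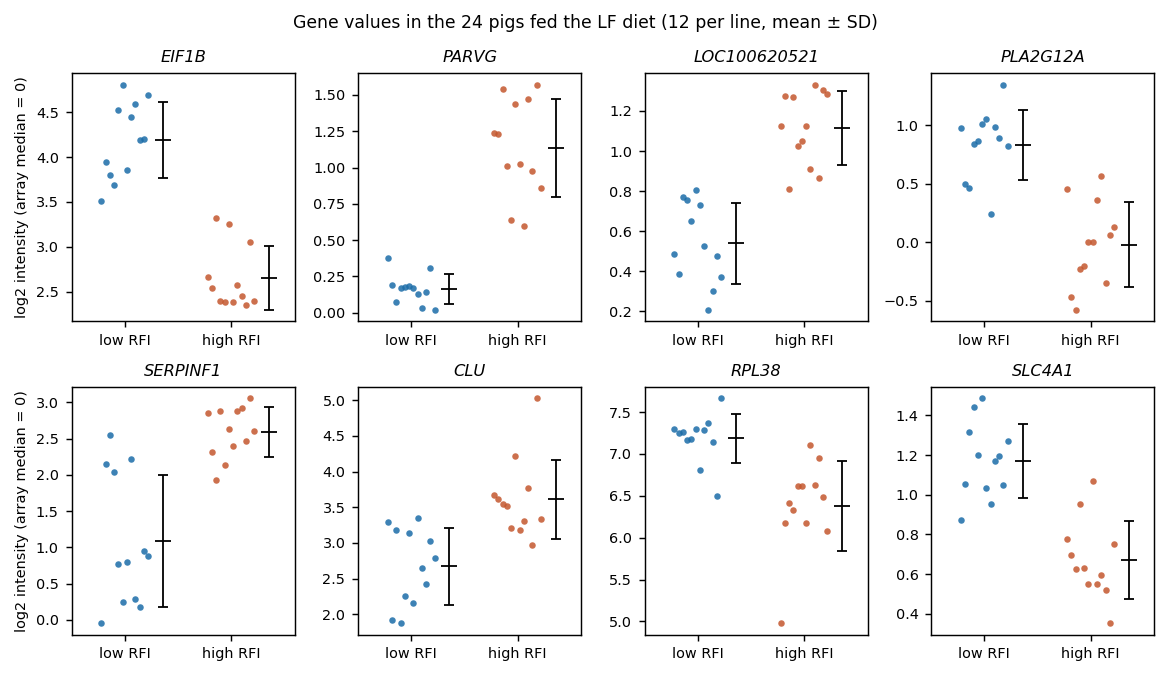
Log2 intensity (array median at 0) of 8 of the 30 called genes in the 12 low RFI and 12 high RFI pigs fed the LF diet, each point 1 pig, with the mean and SD of each line at its side. EIF1B, PARVG and LOC100620521 did not overlap between lines, 9 low RFI pigs lay above every high RFI pig for PLA2G12A, and for SERPINF1 4 low RFI pigs lay within the range of high RFI pigs.

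Among the called genes, SERPINF1 had the largest fall in low RFI pigs. SERPINF1, or pigment epithelium-derived factor, is a secreted serpin that does not inhibit proteases. Levels of SERPINF1 were -0.05, 0.84 and 2.55 in the lowest, median and highest low RFI pig, and 1.93, 2.62 and 3.06 in high RFI pigs. Of the low RFI pigs, 8 were below all high RFI pigs and 4 were inside their range, so that the spread was wider in the low RFI line (SD 0.91 against 0.35). SERPINF1 had an FC of -2.84 (log2 difference -1.51, SE 0.26, adjusted P-value 0.00628, limma with BH correction). CLU codes for clusterin, a secreted chaperone that also restrains complement. CLU levels were 1.87, 2.72 and 3.35 in low RFI and 2.97, 3.53 and 5.03 in high RFI pigs (lowest, median, highest). Of the low RFI pigs, 7 were below all high RFI pigs, and the FC was -1.92 (log2 difference -0.94, SE 0.21, adjusted P-value 0.0424, limma with BH correction). HTRA1, a secreted serine protease, was at -3.21, -2.37 and -1.97 in low RFI and at -2.29, -1.72 and -1.16 in high RFI pigs. It fell below the whole high RFI range in 8 low RFI pigs, and its FC was -1.72 (adjusted P-value 0.00703, limma with BH correction).

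CHIT1, the chitinase chitotriosidase of activated macrophages, was at -1.46, -0.96 and -0.40 in the lowest, median and highest low RFI pig. High RFI pigs had CHIT1 levels of -1.10, 0.01 and 0.62, and 9 of them were above every low RFI pig. The FC of CHIT1 was -1.91 (adjusted P-value 0.0242, limma with BH correction). TGM3, a transglutaminase that cross-links proteins in epithelia, was at -2.24, -1.46 and -0.73 in low RFI and -1.17, -0.42 and 0.56 in high RFI pigs. The TGM3 values of 4 low RFI pigs fell among those of the high RFI pigs, and the FC was -1.95 (adjusted P-value 0.0242, limma with BH correction). Without high RFI replicates 9 and 11, the adjusted P-values rose to 0.0613 for CLU, 0.0733 for CHIT1 and 0.0608 for TGM3.

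C5ORF23 is a name kept from the array's design, and in human annotation it has served as another name of NPR3, the clearance receptor of natriuretic peptides. The tables used here did not pair the 2 names. C5ORF23 was at -2.48, -1.97 and -0.36 in low RFI and -1.56, -0.66 and 1.11 in high RFI pigs (lowest, median, highest). All but 1 of the low RFI pigs were below every high RFI pig, with an FC of -2.45 (log2 difference -1.29, SE 0.25, adjusted P-value 0.0119, limma with BH correction). The probe named NPR3 gave a difference of -0.68 with an adjusted P-value of 0.103. KCNQ3, a potassium channel subunit, was at -2.99, -1.89 and -1.0 in low RFI and -1.43, -1.10 and -0.69 in high RFI pigs, and 8 low RFI pigs were below all high RFI pigs. Its FC was -1.81 (adjusted P-value 0.0421, limma with BH correction), and without high RFI replicates 9 and 11 the adjusted P-value was 0.0759.

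The other underexpressed genes had smaller differences. NAV1, a neuron navigator protein that binds microtubules, was at 0.90, 1.47 and 1.74 in low RFI and 1.21, 2.03 and 2.63 in high RFI pigs, with 9 high RFI pigs above every low RFI pig, and had an FC of -1.56 and an adjusted P-value of 0.0242 by limma with BH correction. SLC5A4, of the sodium and glucose cotransporter family, was at -0.69, -0.32 and 0.18 in low RFI and -0.02, 0.27 and 0.53 in high RFI pigs. In the low RFI line, 9 pigs had less SLC5A4 than any high RFI pig, and the FC was -1.5 (adjusted P-value 0.00183, limma with BH correction). PIKFYVE makes a phosphoinositide of endosomes and lysosomes. It was at 1.20, 1.73 and 1.99 in low RFI and 1.84, 2.25 and 2.39 in high RFI pigs, with 9 low RFI pigs under the high RFI range, and its FC was -1.41 (adjusted P-value 0.00703, limma with BH correction). SLA-DOA, a class II histocompatibility chain that tunes peptide loading in antigen-presenting cells, was at 1.65, 2.04 and 2.75 in low RFI and 2.40, 2.63 and 3.1 in high RFI pigs. Its FC was -1.44 (adjusted P-value 0.0355, limma with BH correction), and 0.0572 without high RFI replicates 9 and 11. The adhesion protein gene AMIGO2 had an FC of -1.4 (adjusted P-value 0.0471), N4BP2L1 of -1.36 (0.0182), the DNA helicase gene HELQ of -1.26 (0.0117) and KLF9, a zinc finger factor induced by glucocorticoids, of -1.24 (0.0231). Without the same 2 arrays the adjusted P-values of AMIGO2 and NAV1 were 0.0569 and 0.0572.

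Among the 12 overexpressed genes, PLA2G12A, a phospholipase A2, came next to EIF1B in size. Levels of PLA2G12A were 0.24, 0.87 and 1.35 in the lowest, median and highest low RFI pig, and -0.58, 0.00 and 0.56 in high RFI pigs. In 9 low RFI pigs it was above every high RFI pig, and the FC was 1.81 (log2 difference 0.85, SE 0.13, adjusted P-value 0.00124, limma with BH correction). ARID3B, an AT-rich DNA binding factor, was at 1.57, 1.82 and 2.10 in low RFI and 1.13, 1.29 and 1.68 in high RFI pigs. The lines overlapped by 2 low RFI pigs and 1 high RFI pig, and the FC was 1.46 (log2 difference 0.54, SE 0.07, adjusted P-value 0.000341, limma with BH correction). ALG1, the mannosyltransferase of an early step of N-glycan assembly, was at -2.58, -2.26 and -1.91 in low RFI and -3.07, -2.74 and -2.35 in high RFI pigs, and its FC was 1.38 (adjusted P-value 0.00703, limma with BH correction). Both probes of C4H8ORF37 were called, and the gene had an FC of 1.53 (adjusted P-value 0.00703). HEATR4 had an FC of 1.47 (adjusted P-value 0.00737).

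RPL38 codes for a protein of the large ribosomal subunit. It was at 6.50, 7.25 and 7.67 in the lowest, median and highest low RFI pig, and 4.98, 6.45 and 7.11 in high RFI pigs. In 10 low RFI pigs it was above every high RFI pig, and 1 high RFI pig lay far below the others, whose lowest value was 6.08. The FC was 1.75 (log2 difference 0.81, SE 0.17, adjusted P-value 0.0242, limma with BH correction). WFDC2 codes for a small secreted protein of the whey acidic protein family. It was at 3.12, 4.02 and 4.57 in low RFI and 2.71, 3.18 and 3.80 in high RFI pigs, so that 9 low RFI pigs exceeded all high RFI pigs. The FC was 1.73 (log2 difference 0.79, SE 0.16, adjusted P-value 0.0186, limma with BH correction). The WFDC2 value averages probes of unlike brightness, which are compared below.

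EDARADD, the adaptor of the ectodysplasin receptor, was at -1.6, -1.29 and -0.68 in low RFI and -2.38, -1.80 and -1.31 in high RFI pigs, with an FC of 1.51 (adjusted P-value 0.0117, limma with BH correction). It was read by 1 retained probe, and its call was lost under 1 alternative processing, at an adjusted P-value of 0.196. UBE2C, a ubiquitin-conjugating enzyme of mitosis, was at 2.42, 3.09 and 3.56 in low RFI and 2.10, 2.64 and 3.04 in high RFI pigs. Its FC was 1.44 (adjusted P-value 0.0417, limma with BH correction), the direction differed on 1 of the 6 slides, and the adjusted P-value was 0.0577 without high RFI replicates 9 and 11. CCR10, a chemokine receptor, was at -0.43, -0.09 and 0.29 in low RFI and -0.78, -0.49 and -0.30 in high RFI pigs, and its FC was 1.3 (adjusted P-value 0.0355, limma with BH correction). SLC4A1 codes for band 3, the anion exchanger of the red cell membrane. It was at 0.87, 1.18 and 1.49 in low RFI and 0.35, 0.63 and 1.07 in high RFI pigs, and 7 low RFI pigs were above all high RFI pigs. The FC of SLC4A1 was 1.41 (log2 difference 0.50, SE 0.08, adjusted P-value 0.00216, limma with BH correction). Of the 30 genes, 28 kept their direction on all 6 slides, and CHIT1 and UBE2C did so on 5.

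The probes of a gene did not always move together. For RPL38 the difference was 1.44 on probe A_72_P016041 (adjusted P-value 0.00164) and 0.17 on probe O12413 (adjusted P-value 0.843), by limma with BH correction. For SLC4A1 it was 1.06 on probe A_72_P070746 (adjusted P-value 0.0188) and -0.06 on probe O801 (adjusted P-value 0.895). The call on SLC4A1 therefore rests on 1 of its 2 probes. An unnamed probe on the array holds the same 60 bases as A_72_P070746, printed here because the call rests on them, and it gave a difference of 1.09.
SLC4A1, probe A_72_P070746: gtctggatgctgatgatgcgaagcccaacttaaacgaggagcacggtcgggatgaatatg

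Among the underexpressed genes, SLC5A4 was at -0.94 on probe A_72_P077731 (adjusted P-value 4.8e-05) and -0.24 on probe O8049 (adjusted P-value 0.796), by limma with BH correction, so that its call also rests on 1 of 2 probes. HELQ was at -0.65 on the called probe and -0.01 on the other. For HTRA1 and PIKFYVE, 1 of 2 probes was called, at -1.09 and -0.70, and the other was at -0.47 and -0.28. KLF9 had 5 called probes of 10, at -0.58 to -0.49, and the other 5 were at -0.27 to -0.02. With the brightest probe of each gene, the adjusted P-values were 0.823 for SLC5A4, 0.471 for KLF9, 0.845 for RPL38 and 0.832 for WFDC2.

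WFDC2 had differences of 1.11 and 1.09 on the 2 called probes. Median levels on the called probe A_72_P054911 were 2.45 in low RFI and 1.34 in high RFI pigs. On A_72_P146751 they were far higher, at 8.38 and 8.34, so that the call does not rest on this bright probe. The difference was 1.11 on A_72_P054911 and 0.17 on A_72_P146751. The latter shares 51 of its 60 bases with the called probe A_72_P054911, and each has 9 bases that the other lacks, ttctggcct on A_72_P146751 and gtgatcact on A_72_P054911. SERPINF1 had differences of -1.87 to -1.85 on 3 called probes and of -0.44 on the other (adjusted P-value 0.64, limma with BH correction). One called and the uncalled probe of SERPINF1 are printed for comparison.
SERPINF1, called probe A_72_P008221: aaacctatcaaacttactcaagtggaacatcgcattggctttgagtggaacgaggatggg
SERPINF1, uncalled probe A_72_P742047: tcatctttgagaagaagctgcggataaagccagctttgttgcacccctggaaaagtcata

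**Figure D2:**
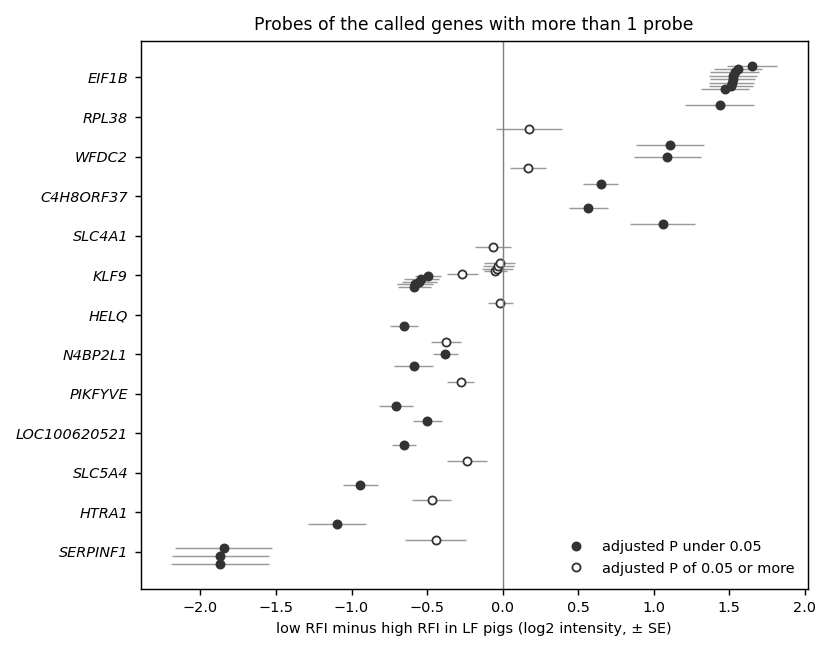
Difference between low RFI and high RFI pigs on the LF diet (log2 intensity, with SE) for each probe of the called genes named in the text that have more than 1 probe, with filled points for probes called at an adjusted P-value under 0.05. The 8 probes of EIF1B lie between 1.47 and 1.65, whereas RPL38, WFDC2, SLC4A1 and HELQ each have 1 probe between -0.06 and 0.17.

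In all, 55 genes had a called probe, and 25 of them were not called on the gene value. Some genes that the study ranked high or measured by qPCR on these same samples were among them. GPX3, the secreted glutathione peroxidase, had 4 probes, of which 3 were called, and a gene level of -1.52, 0.21 and 1.88 in low RFI and 0.22, 1.76 and 2.69 in high RFI pigs. The lines overlapped by 6 pigs each, and the log2 difference was -1.53 (SE 0.37, adjusted P-value 0.0737, limma with BH correction). The probe that was not called was at 0.08. OAZ3, an antizyme that restrains polyamine synthesis, was at -2.40, -2.08 and 0.06 in low RFI and -2.46, 0.32 and 0.82 in high RFI pigs, with a log2 difference of -1.61 (adjusted P-value 0.0574). In 7 high RFI pigs OAZ3 was above every low RFI pig. NPM2, a nucleoplasmin histone chaperone, was at 2.15, 2.44 and 3.48 in low RFI and -1.91, -0.34 and 2.66 in high RFI pigs. For NPM2, 5 high RFI pigs were within the low RFI range and 7 were below it, and the log2 difference was 2.27 (SE 0.52, adjusted P-value 0.0574, limma with BH correction). SLPI, a secreted inhibitor of leukocyte proteases, was at 0.35, 1.82 and 3.16 in low RFI and -0.41, 0.32 and 3.23 in high RFI pigs (adjusted P-value 0.0858). Without high RFI replicates 9 and 11 these 4 genes passed, with adjusted P-values of 0.033 for GPX3, 0.01 for OAZ3, 0.043 for NPM2 and 0.000858 for SLPI.

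Other genes that the study ranked or measured had smaller differences, and those given next were not called. NMI, which the study ranked and measured, had no gene value here and was not tested. TRAF6, an adaptor of Toll-like receptor signalling, differed by 0.88 (adjusted P-value 0.187), SLCO2B1, an organic anion transporter, by 0.97 (0.132), and CD40, a costimulatory receptor of B cells, by -0.45 (0.0725), by limma with BH correction. DGAT2, IFITM1 and IL6ST had log2 differences of -0.27, -0.20 and -0.19. The study listed IFITM1 and IL6ST as overexpressed in low RFI pigs, which is the opposite sign. The measures are unlike, since the study reported DE probes over both diets, and a gene value here averages all probes in LF pigs. CAPNS1, the small calpain subunit, had -0.02 (adjusted P-value 0.951).

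The sequences of GPX3 and OAZ3 probes bear on how these values were read. Probe A_72_P036051 carries the name GPX3 in the array's design and an accession that RefSeq gives to CAPNS1, and was left without a symbol. It matches the GPX3 probe A_72_P440086 at all but 2 of 58 aligned bases. The window of 30 bases that holds both mismatches is shown with the mismatched bases in capitals, and they are G5A and C25A, counted from 1 at the 5′ end of the window, with the base of the GPX3 probe first.
GPX3, probe A_72_P440086: ttcaGttggtctgctctaacctggCcttta
unnamed, probe A_72_P036051: ttcaAttggtctgctctaacctggActtta

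The difference between the lines was -1.63 on the GPX3 probe and -2.11 on A_72_P036051 (adjusted P-values 0.0467 and 0.0286, limma with BH correction). One further unnamed probe with the same 60 bases as A_72_P036051 gave -2.04. The 3 probes named CAPNS1 were at -0.03 to -0.02. For OAZ3, the called probes A_72_P437459 and O3277 hold 1 and the same sequence, with differences of -2.01 and -2.04, so that they count as 1 reading.
OAZ3, probes A_72_P437459 and O3277: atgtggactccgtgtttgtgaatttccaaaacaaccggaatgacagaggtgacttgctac

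Of the 146 called probes, 68 had no symbol. The largest falls among them were on A_72_P036051, A_72_P414198 and the further probe with the sequence of A_72_P036051, and A_72_P414198 differed by -2.07 (adjusted P-value 0.0258, limma with BH correction). The largest rises were 1.53 on A_72_P329998, 1.28 on A_72_P304024 and 1.09 on the unnamed probe with the SLC4A1 sequence above. On A_72_P304024 the lines did not overlap, with low RFI pigs from 0.12 to 0.89 and high RFI pigs from -1.43 to -0.28, and this held for 12 of all 37113 probes (0.0323%).

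The pigs fed the HF diet took no part in choosing these genes and served as a separate set of 12 low RFI and 12 high RFI animals. All 30 genes had the same sign there, against 52.0% of all genes, and 14 of them were DE at an adjusted P-value under 0.05 by limma with BH correction, where 0.568% of all genes were. These 14 made up 46.7% of the genes called in LF pigs and 24.6% of the 57 called in HF pigs. PARVG differed by -0.89 in HF pigs (adjusted P-value 6.32e-05), EIF1B by 1.16 (0.00123), HTRA1 by -0.95 (0.000587) and ARID3B by 0.65 (0.000662). SERPINF1 differed by -1.32 (0.0318) and RPL38 by 0.93 (0.00123). The median size of the difference over the 30 genes was 0.60 in LF and 0.55 in HF pigs, where the LF value is favoured by the choice of the genes.

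The test of the difference itself, the interaction of line and diet over all 48 pigs, called 0 of 10033 genes after BH correction in limma, where no gene came below 0.879. Without correction, 237 genes (2.36%) were under 0.05 and 0.199% under 0.01, and 0.264% of probes were under 0.01. An unmoderated analysis of variance on probes also called 0. Among the 30 called genes, 4 had an unadjusted interaction P-value under 0.05. SLC4A1 differed between lines by 0.50 in LF and 0.01 in HF pigs, and EDARADD by 0.59 and 0.03. The SLC4A1 values rest on probe A_72_P070746, at 1.06 in LF and 0.13 in HF pigs, whereas its probe O801 was at -0.06 and -0.10. NAV1 differed by -0.64 and -0.22, and LOC100620521 by -0.58 and -0.20. The 8 lowest interaction P-values over all genes were those of SLC4A1, STAP1, EDARADD, LGALS3, SMAGP, MYLIP, ARHGAP17 and UBE2CBP. LGALS3, the lectin galectin-3, differed by 0.07 in LF and -0.73 in HF pigs, and STAP1, a signalling adaptor, by -0.39 and 0.10.

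**Figure D3:**
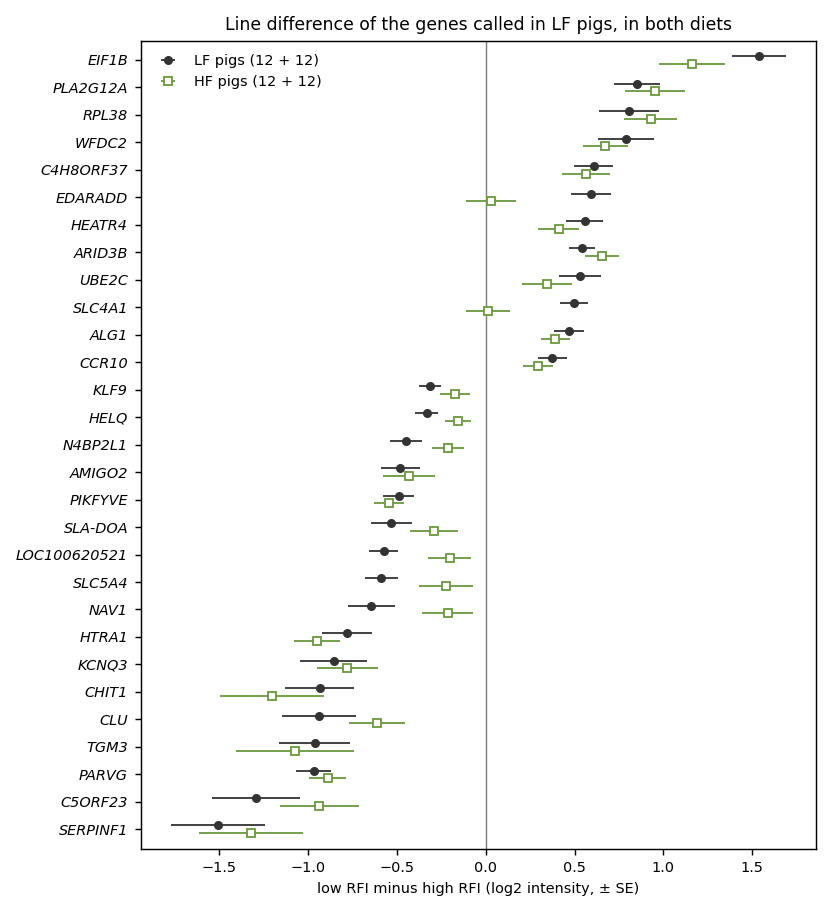
Difference between low RFI and high RFI pigs (log2 intensity, with SE) for called genes named in the text, in the 24 LF pigs that chose them and in the 24 HF pigs. Every gene drawn has the same sign in both diets, and EDARADD and SLC4A1 are at 0.03 and 0.01 in HF pigs.

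Markers of blood cells were then compared, list by list, beside the 7.48% of all genes that had an unadjusted P-value under 0.05. The sample matched its label, with red cell, lymphocyte and granulocyte markers such as HBB, CD3E and S100A8 above the array median, at means of 9.26, 3.56 and 4.61 in low RFI pigs. For the B cell list, 16 of 20 measured genes were lower in low RFI pigs, with a median difference of -0.21 against 0.02 over all genes. None of them was called after BH correction, but 10 had an unadjusted P-value under 0.05 by limma, all lower. CD40 was at 2.98, 3.44 and 4.16 in low RFI and 3.59, 4.01 and 4.13 in high RFI pigs (lowest, median, highest). Only the highest low RFI pig exceeded the top of the high RFI range. BLNK, the adaptor of the B cell receptor, differed by -0.34 (adjusted P-value 0.0655), EBF1, a B cell transcription factor, by -0.41 (0.131), and MS4A1, which codes for CD20, by -0.32. The mean of the list was 1.49, 1.91 and 2.18 in low RFI and 1.92, 2.11 and 2.22 in high RFI pigs, and the median difference was -0.18 without high RFI replicates 9 and 11. In HF pigs 2 of the 20 genes were higher in the low RFI line, and the median was -0.10.

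For the red cell list, 24 of 31 measured genes had higher means in the low RFI line, the median difference was 0.22, and SLC4A1 was called. HBZ, the zeta globin, was at 5.36, 6.53 and 7.54 in low RFI and 5.0, 5.63 and 6.70 in high RFI pigs (difference 0.70, adjusted P-value 0.32, limma with BH correction). RHCE, a Rh blood group protein, differed by 0.80 and HEMGN by 0.68, each with an unadjusted P-value under 0.05. SELENBP1 differed by -0.29. The list mean was 1.83, 2.42 and 3.04 in low RFI and 1.6, 2.34 and 2.66 in high RFI pigs, so that the lines overlapped over most of their range. The median difference was 0.10 without high RFI replicates 9 and 11 and -0.02 in HF pigs, where 12 of the 31 genes were higher, against 54.2% of all genes. SLC4A1 remained called without the 2 arrays.

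**Figure D4:**
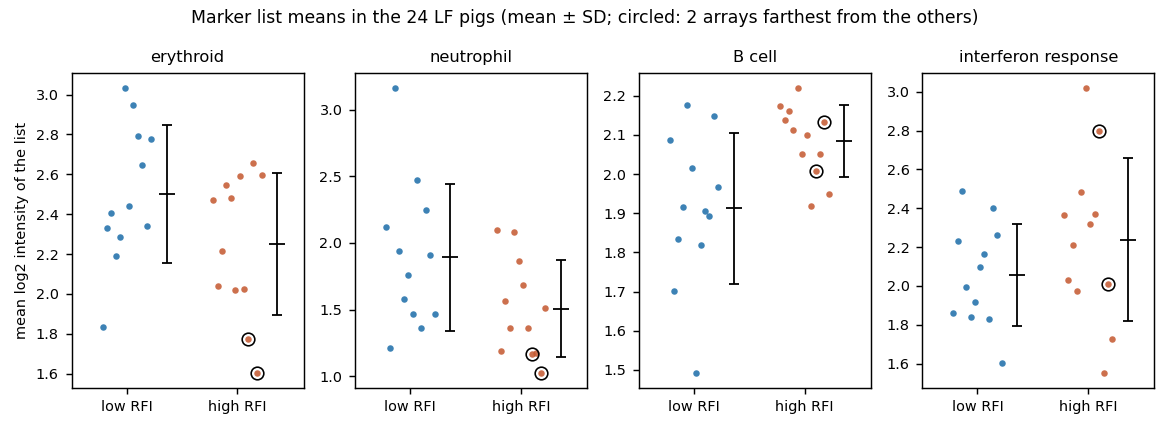
Mean log2 intensity of 4 marker lists in each of the 12 low RFI and 12 high RFI pigs on the LF diet, with the mean and SD of each line, and with the arrays of high RFI replicates 9 and 11 circled. The lines overlap for all 4 lists, the circled arrays are the lowest for the red cell list, and the low RFI pigs extend lower for the B cell list.

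In the neutrophil list, 18 of 25 genes had higher means in the low RFI line. The median difference was 0.23, which was 0.14 without high RFI replicates 9 and 11 and -0.16 in HF pigs. The list was led by the cathelicidins, antimicrobial peptides of granule precursors. PMAP-36 was at -2.41, 0.03 and 4.01 in low RFI and -2.74, -2.05 and -1.63 in high RFI pigs, with 7 low RFI pigs above all high RFI pigs. Its difference was 2.15 (SE 0.60, adjusted P-value 0.142), that of PMAP-23 1.94 (0.162), that of the protegrin NPG4 1.41 (0.476) and that of PR39 1.20, by limma with BH correction. These genes are close relatives, and their probes may share signal. The calprotectin genes S100A8 and S100A9 of mature neutrophils had differences of -0.05 and -0.07. In HF pigs PMAP-36 and PMAP-23 differed by 0.72 and 0.42.

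Among monocyte genes 14 of 23 had lower means in the low RFI line, and the median was -0.15, or -0.04 without high RFI replicates 9 and 11. CHIT1 was called, the beta-glucan receptor CLEC7A differed by -0.65 (adjusted P-value 0.118) and CD83 by -0.46. For T cells, 15 of 18 genes had higher means in the low RFI line. The median was 0.10, or 0.19 without the 2 arrays and 0.18 in HF pigs, and none was called. The cytotoxic list had 14 of 20 genes higher and a median of 0.09, or 0.21 without the 2 arrays, with values in both directions. GZMH, a granzyme, differed by -0.98 (adjusted P-value 0.0811) and KLRB1 by -0.60, whereas EOMES and KLRC1 were at 0.48 and 0.44. For the 15 platelet and 6 eosinophil, basophil and mast cell genes the medians were 0.05 and 0.15, with none called.

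Of 28 genes that mark tissues other than blood, 17 had higher means in the low RFI line, and the median was 0.08, or 0.03 without high RFI replicates 9 and 11, close to the median of all genes in that setting. TGM3 was called, TGM1 differed by -0.86 and FXYD3 by 1.13 (adjusted P-values 0.163 and 0.178, limma with BH correction). Markers such as EPCAM, ALB and ADIPOQ were below the array median, at means of -2.30, -2.18 and -2.27 in low RFI pigs, with differences of -0.00, 0.07 and 0.20.

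**Figure D5:**
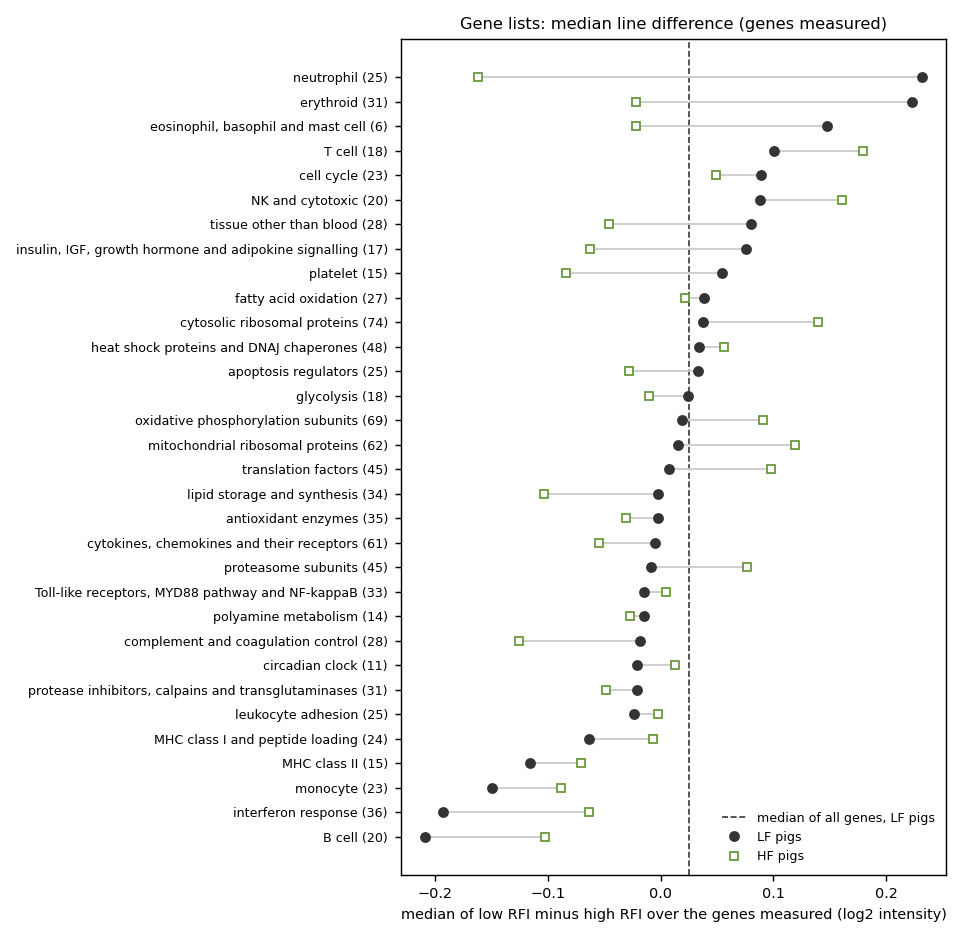
Median difference between low RFI and high RFI pigs (log2 intensity) over the measured genes of each list other than those drawn up by the study, their number in brackets, in LF and in HF pigs, with the median of all genes in LF pigs as a broken line. Neutrophil and red cell lists lie at 0.23 and 0.22 in LF pigs and at -0.16 and -0.02 in HF pigs, and the B cell list lies lowest of the lists drawn, at -0.21 in LF pigs.

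Lists of immune function were compared in the same way. Of 36 interferon-induced genes 29 were lower, with a median of -0.19 and none called. XAF1 was at 0.40, 1.19 and 2.32 in low RFI and 1.28, 1.88 and 3.52 in high RFI pigs (difference -0.72, adjusted P-value 0.308, limma with BH correction). USP18 and BST2, other genes induced by interferon, differed by -0.46 and -0.39. In HF pigs the median of this list was -0.06. For class II histocompatibility genes, 11 of 15 were lower, with a median of -0.12, or -0.07 without high RFI replicates 9 and 11, and SLA-DOA was called. The class I and peptide loading list had 17 of 24 genes lower and a median of -0.06, which turned to 0.02 without the 2 arrays. SLA-5 differed by -0.69 (adjusted P-value 0.111) and the immunoproteasome subunit PSMB8 by -0.48. The Toll-like receptor, cytokine and complement lists had medians of -0.01, -0.00 and -0.02, near that of all genes, with CCR10 and CLU the called members. Without the 2 arrays the Toll-like receptor list was at -0.0045 and the cytokine list turned to 0.03. A list of 85 measured genes that the study grouped as immune and cell processes had 79 genes lower and a median of -0.21, with 38 genes at an unadjusted P-value under 0.05 (44.7%), but it was drawn up on these samples and is no independent evidence of direction.

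Among genes of translation, EIF1B and RPL38 were called. Of 74 cytosolic ribosomal protein genes 63 had higher means in the low RFI line, but the median of 0.04 was close to the 0.02 of all genes, and only RPL38 was called. The count depended on the processing, with 37 of 74 higher and a median of 0.00055 after normexp and quantile normalization, and 70 of 74 and 0.07 without high RFI replicates 9 and 11. RPL35 differed by 0.54 (adjusted P-value 0.132) and RPL14 by 0.30 (0.137), by limma with BH correction. In HF pigs 69 of the 74 were higher, with a median of 0.14, and the difference between diets was not tested for the list. The list that the study drew up on these samples for translational elongation had 15 of 16 measured genes higher, with a median of 0.08 and none called. Among 45 translation factors EIF1B was the only gene called, and 25 were higher, with a median of 0.01. Without high RFI replicates 9 and 11, 41 of the 45 were higher, with a median of 0.06, against 0.03 over all genes. Mitochondrial ribosomal proteins, oxidative phosphorylation subunits and proteasome subunits had medians of 0.02, 0.02 and -0.01 with none called. Without the same 2 arrays these medians were 0.06, 0.07 and 0.05, and 53 of 62 mitochondrial ribosomal protein genes were higher, against 38 with them. UQCR10, a subunit of respiratory complex III, was at 5.40, 5.67 and 6.18 in low RFI and 4.93, 5.24 and 5.75 in high RFI pigs (difference 0.38, adjusted P-value 0.0825).

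The list of protease inhibitors, calpains and transglutaminases held 4 called genes out of 31, where 0.299% of all genes were called. WFDC2 was overexpressed, and SERPINF1, HTRA1 and TGM3 were underexpressed in low RFI pigs, while the median of the list was -0.02, or 0.03 without high RFI replicates 9 and 11. HTRA1 is itself a protease and SERPINF1 inhibits none. WFDC2, SERPINF1 and HTRA1 are also among the genes that the study ranked high on these samples, so that the count is no independent evidence. No antioxidant enzyme was called among 35, although GLRX, a glutaredoxin, differed by -0.54 (adjusted P-value 0.0655, limma with BH correction) and MSRA, which repairs oxidised methionine, by -0.36 (0.155). The median of the antioxidant list was -0.00, or 0.02 without the 2 arrays. In polyamine metabolism, with a median of -0.01, or 0.01 without them, OAZ3 differed as above and OAZ1, the widespread antizyme, by 0.35 (0.127). Fatty acid oxidation, lipid storage and synthesis, and glycolysis had medians of 0.04, -0.00 and 0.02 with none called. Without the 2 arrays the lipid list was at 0.0079 and the glycolysis list at 0.10. For insulin, growth hormone and adipokine signalling 15 of 17 genes were higher, with a median of 0.08 in LF and -0.06 in HF pigs, and IGF1, the insulin-like growth factor, differed by 0.22 (0.382). The count for this list was 11 of 17 with the brightest probe and 12 of 17 after normexp and quantile normalization. The cell cycle list had 21 of 23 genes higher, with a median of 0.09, or 0.15 without high RFI replicates 9 and 11, and UBE2C was the called member, next to AURKA at 0.20 and CENPF at 0.24. The lists of chaperones, adhesion molecules, apoptosis regulators and clock genes had medians of 0.03, -0.02, 0.03 and -0.02, with none called. Without the 2 arrays the chaperone, adhesion and clock lists were at 0.06, 0.01 and 0.08.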

How the data were processed

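Blood RNA of 48 pigs was hybridized to single-colour 60-mer arrays, 1 per pig. The authors deposited scanner files with spot intensity and background, and log2 values for 37113 retained of 60306 non-control spots, analysed with R 3.0.2 per the labels. On 47 arrays these deposited log2 values equalled log2 median intensity minus the array median, without background subtraction. The column of high RFI HF replicate 1 repeated 1 value in 37090 entries and was rebuilt from its scanner file. This pig enters only the HF and interaction values and the alternative with all pigs in 1 fit.

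Symbols came from accessions in the RefSeq table, gene numbers or the array's names, and 17514 retained probes stayed unnamed, of which 25 carried a name and an accession of different genes. A gene value is the mean of its probes (10033 genes, 4454 with more than 1 probe). The 24 LF pigs were fitted alone with limma 3.58.1 in R 4.3.3 (lmFit, eBayes), with BH correction over all probes or genes. HF pigs had a fit of their own, and the interaction used 4 group means. The fits were tested on simulated data. Tables and plots used Python 3.11.15, pandas 2.3.3, numpy 2.4.6 and matplotlib 3.10.9.

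Genes are named when they are among the 12 largest called changes in each direction, called in a list or among its 3 lowest P-values, ranked or measured by qPCR in the study, or among the 8 lowest interaction P-values, as are the 3 largest unnamed probes in each direction. The other called genes, and PR39, S100A8, S100A9, KLRB1, HBB, CD3E, RHCE, HEMGN, MS4A1, EPCAM, ALB and ADIPOQ, were added after their values were seen. Members and lists were chosen with earlier results of these data known. A few genes that the rule names are not reported here. Blood counts and qPCR were not analysed here. Alternatives were other scalings (75th percentile, array median, normexp with offset 50 and quantile), probe filters, slide and replicate blocks, an unmoderated analysis of variance, a trended robust prior, all pigs in 1 fit and the brightest probe of a gene. The setting without high RFI replicates 9 and 11 was added after the data were seen.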

Additional observations from a re-analysis of the deposited data

Results flagged for a closer look

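For 4 of the called genes the difference between lines departed between diets at an unadjusted interaction P-value under 0.05 in limma, and none did so after BH correction, where the lowest adjusted P-value over all genes was 0.879. The LF difference minus the HF difference was 0.562 for EDARADD (P-value 0.00372), 0.484 for SLC4A1 (0.00204), -0.373 for LOC100620521 (0.0144) and -0.429 for NAV1 (0.037). These genes were chosen on the LF pigs, which favours a larger LF value. The LF calls of EDARADD and SLC4A1 were each lost under 1 alternative processing, and that of NAV1 under 4. For SLC4A1 the departure lay on probe A_72_P070746, at 1.06 in LF and 0.13 in HF pigs. Its other probe, O801, was at -0.06 and -0.10.

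Of the 23193 non-control spots that the deposited table left out, 7 differed between the lines in LF pigs at an adjusted P-value under 0.05 when all non-control spots were fitted from the scanner files. One carried a symbol, LZTFL1, with a log2 difference of -0.70 and an adjusted P-value of 0.0182. The largest was -1.77 on the unnamed probe A_72_P177001, which was well above background on 7 low RFI and 11 high RFI arrays.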

How the results depend on the processing

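Of 12 alternatives for the gene values, the number of called genes ranged from 17 with the brightest probe of each gene to 55 with normexp and quantile normalization, against 30. On probes, 146 were called, against 91 in all with the analysis of variance, 93 with the replicate block and 213 with all pigs in 1 fit. The calls of ARID3B, C5ORF23, EIF1B, LOC100620521, PARVG, PIKFYVE, PLA2G12A and SERPINF1 held under all 12 alternatives. Those of ALG1 and HTRA1 held under the alternatives that tested them, which leave out the filter on probes well above background on every LF array, where 27 of the 30 genes were tested. The other 20 were lost under at least 1, UBE2C under 9 and KCNQ3 under 7. With all non-control spots, 23 of the 30 stayed called. AMIGO2, UBE2C, NAV1, CCR10 and EDARADD were read by 1 retained probe each. Their adjusted P-values rose as high as 0.651, 0.428, 0.318, 0.23 and 0.196 under the alternatives (limma with BH correction). With the brightest probe, differences became -0.065 for SLC4A1, 0.084 for GPX3 and 0.14 for DGAT2, and 9 of the called genes passed in HF pigs, against 14. Without high RFI replicates 9 and 11, CAPNS1 was at 0.045 and the class I list at 0.020. For the interaction, 98 probes had a P-value under 0.01, 14 with the damaged column as deposited and 211 with the replicate block. Same-numbered LF pigs correlated at -0.37 to 0.61, over 0.1 in 7 of 12 pairs. Low and high RFI pigs of the same number always shared a slide. The mean correlation was 0.14 for pigs on the same slide with other numbers, and -0.02 for pigs on other slides. Since the number also sets the slide, these values do not show whether the numbers pair the pigs in another way. With the replicate number as a block 32 genes were called, 21 of them among the 30. With slide as a block 41 were called, 29 of them among the 30. The causes were not tested. Precision is limited by 12 arrays per line, and by 2732 retained probes that were not well above background on every LF array.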
